A study of Mus musculus with 3 samples.

Results

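The BMP and GDF ligands read here are 10 genes, Bmp2, Bmp3, Bmp4, Bmp5, Bmp7, Gdf5, Gdf6, Gdf7, Gdf10 and Gdf11, out of 33762 features in a table of gene expression along the embryonic mouse gut. They were taken by gene name and not by a cut on their values, though with earlier results of these data known. Each name matched 1 feature. The table covers 3 gut segments, the presumptive ileum, caecum and colon, each from wild type embryos of the strain given as Bl6/C57 at E13.5, with no treatment named and 1 sample per segment. The ileum is the last of 3 equal parts of the small intestine, and the RNA is that of the disrupted tissue with no sorting of cells named, so all cell types of a segment are read together. The labels do not give the number of embryos behind a sample or their sex.

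BMPs and GDFs are secreted dimers of the TGF-beta superfamily. They bind pairs of type I and type II receptor kinases, which phosphorylate Smad proteins, and they are held back outside the cell by antagonists such as Noggin and Gremlin. In the developing gut, BMP signalling takes part in exchanges between epithelium and mesenchyme, in the layering of smooth muscle and in the patterning of segments. The 10 genes fall into subfamilies by sequence, with Bmp2 beside Bmp4, Bmp5 beside Bmp7, Gdf5, Gdf6 and Gdf7 together, Bmp3 beside Gdf10 (also named Bmp3b), and Gdf11, the relative of myostatin, which signals through activin-type receptors.

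Levels are given as RPKM, reads scaled to gene length and library depth by the authors, which allows comparison between genes. The libraries held 50079617 counts in the ileum, 64439701 in the caecum and 50772855 in the colon. Differences between segments are ratios of read counts scaled to library size, with a 95% interval in brackets. Each segment has 1 library, read from 2 columns that the file labels as replicates and that differed by less than counting noise. The intervals therefore cover counting error only, no test between segments was possible, and no difference has a replicate check. A gene was compared where the higher library had at least 20 counts and was called apart at 2-fold or more. In these bulk samples, fewer cells that make a ligand and less ligand RNA per cell cannot be told apart.

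Gdf5 and Gdf10 were far higher in the caecum than in both neighbouring segments, Gdf6 was lower there than in both, and Bmp3 was highest in the ileum, lower in the caecum and lowest in the colon. Bmp4, the most abundant ligand in every segment, was highest in the caecum but stayed within 2-fold. Of the 10 ligands, 9 reached 20 counts in a library, and Gdf7 did not. Between caecum and ileum 4 of 9 were apart, where 7.11% of all features compared were. Gdf5 and Gdf10 were higher in the caecum, as were 4.59% of all features, and Bmp3 and Gdf6 were higher in the ileum, as were 2.52%. Gdf5 and Gdf10 were also more than 10-fold apart, which held for 0.567% of features. Between caecum and colon 4 of 9 were apart, against 7.84% of all features. Bmp3, Gdf5 and Gdf10 were higher in the caecum, as were 5.11% of features, and Gdf6 was higher in the colon, as were 2.74%. Gdf5 was again more than 10-fold apart, as were 0.603% of features. Between colon and ileum 2 of 8 were apart, against 8.33%, with Gdf10 higher in the colon (4.04% of features) and Bmp3 higher in the ileum (4.29%). The median absolute log2 difference of the ligands compared was 0.90, 0.62 and 0.27 in these comparisons, and that of all features 0.19, 0.17 and 0.15. Gdf5 reached 20 counts only in the caecum, where it was high, so its part in these counts and in those below supports nothing. The ligands were chosen with earlier results of these data known, so these shares are a description.

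**Figure D1:**
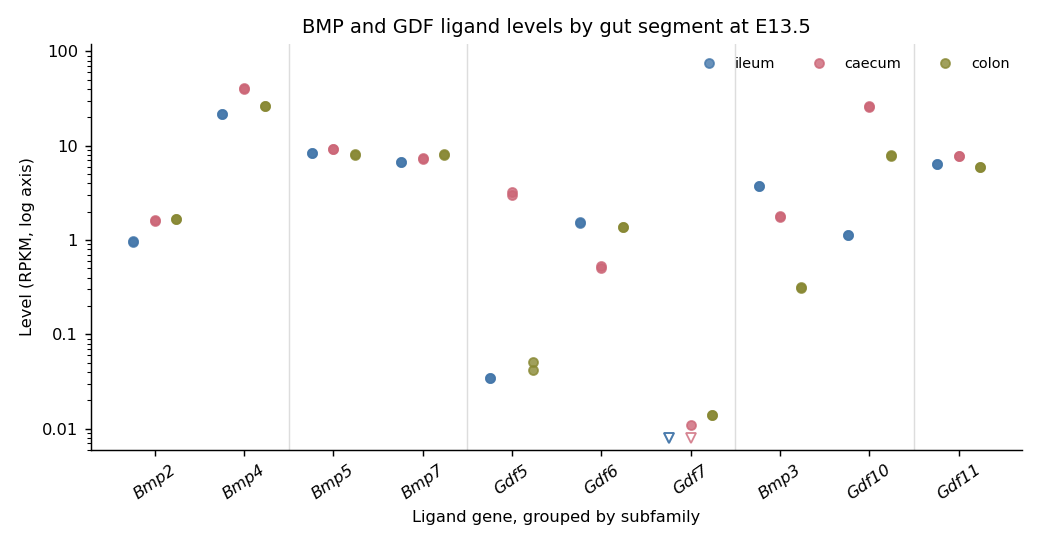
Level of each ligand in RPKM (log axis) in the libraries of ileum, caecum and colon, with 1 point per deposited column and open triangles at the foot of the axis for columns at 0. Gdf5 and Gdf10 stand highest in the caecum, at 3.12 and 26.1 RPKM, while Gdf6 is lowest there, at 0.514 RPKM.

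The promoters of Gdf10 and Bmp4, the ligands that made up most of the summed ligand level in the caecum, are shown as the 250 bases before the gene start, from RefSeq on GRCm38.p6. Capitals mark matches on either strand to 3 short motifs, the GC box GGGCGG, the SMAD-binding core CAGAC, and TTTAT, a core shared by sites of posterior HOX and CDX proteins. The Gdf10 stretch lies at chr14:33923337-33923586 on the plus strand and the Bmp4 stretch at chr14:46390670-46390919 on the minus strand.
Gdf10: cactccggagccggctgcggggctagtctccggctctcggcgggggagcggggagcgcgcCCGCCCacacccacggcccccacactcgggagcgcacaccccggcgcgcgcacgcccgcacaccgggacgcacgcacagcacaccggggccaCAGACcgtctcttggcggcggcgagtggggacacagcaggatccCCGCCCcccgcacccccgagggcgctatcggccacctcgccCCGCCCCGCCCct
Bmp4: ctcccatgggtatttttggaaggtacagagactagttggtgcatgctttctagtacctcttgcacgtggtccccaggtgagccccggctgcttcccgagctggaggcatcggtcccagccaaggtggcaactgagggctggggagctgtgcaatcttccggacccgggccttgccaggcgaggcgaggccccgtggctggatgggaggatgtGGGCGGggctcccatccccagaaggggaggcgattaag
The Gdf10 stretch is 78.8% G and C, against a median of 52.4% over 32851 promoters, and holds 4 GC boxes, the nearest at -13 and -8 from the start and sharing 1 base. It holds 1 CAGAC match, at -98, and none to TTTAT. The Bmp4 stretch is 63.2% G and C and holds 1 GC box, at -38, with no match to the other motifs. Of all promoters of this length, 32.7% hold a GC box, 4.09% hold 4 or more, 42.2% hold CAGAC and 37.3% hold TTTAT. The motifs do not overlap each other in these stretches, apart from the GC boxes named. The table matched 5 of the 10 ligands, and Bmp2, Bmp3, Bmp7, Gdf5 and Gdf6 are not among them.

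Gdf10, a ligand of the Bmp3 type, was the ligand with the most counts in the caecum and went from a minor to a major ligand between segments. Its columns held 211 and 215 counts in the ileum, 6262 and 6299 in the caecum, and 1494 and 1509 in the colon, or 1.14, 26.1 and 7.90 RPKM. The caecum was high, the colon intermediate and the ileum low, with no overlap of the counting intervals. The scaled count of Gdf10 in the caecum was 22.7 times (19.8 to 26.1) that of the ileum and 3.31 times (3.13 to 3.501) that of the colon. The colon, in turn, was 6.85 times (5.93 to 7.95) as high as the ileum. By RPKM it was 7th of the 10 ligands in the ileum, 2nd in the caecum and 4th in the colon. The gene (ENSMUSG00000021943) lies on chromosome 14 from 34736773 to 34749700 of mm9, on the plus strand, and no other feature of the table overlaps it.

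Bmp3, which encodes an atypical BMP that can act against other BMPs, ran in another order than Gdf10, its nearest relative. The columns held 581 and 579 counts in the ileum, 358 and 354 in the caecum, and 49 and 50 in the colon. These are levels of 3.72, 1.78 and 0.313 RPKM, stepwise lower along the gut, with no overlap of the counting intervals. The ileum exceeded the caecum 2.12-fold (1.85 to 2.43), an interval that includes folds under 2. The caecum exceeded the colon 5.63-fold (4.18 to 7.73), and the ileum exceeded the colon 11.9-fold (8.93 to 16.3), in a comparison where 0.904% of all features compared were at least 10-fold apart. The RPKM ratio of Gdf10 to Bmp3 was 0.306 in the ileum, 14.7 in the caecum and 25.2 in the colon, so that Bmp3 was the more abundant of the pair in the ileum alone. Bmp3 (ENSMUSG00000029335) lies on chromosome 5 from 99283458 to 99309979, on the plus strand.

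Gdf5, a ligand best known from developing joints, was near the limit of counting in the ileum and colon and clearly present in the caecum. The columns held 4 and 4 counts in the ileum, 479 and 453 in the caecum, and 5 and 6 in the colon, or 0.0344, 3.12 and 0.0467 RPKM. The caecum stood apart from both other libraries, whose intervals overlapped. The caecum exceeded the ileum 89.6-fold (34.8 to 330.1) and the colon 61.4-fold (28.0 to 168) in Gdf5, and the wide intervals come from the few counts in these segments. With 6 counts at most, the colon and ileum were not compared. Gdf5 (ENSMUSG00000038259) lies on chromosome 2 from 155766759 to 155771103, on the minus strand. Gm15557, a feature on the opposite strand, shares 1728 of its 2023 bases with the Gdf5 span and had 2 counts in the ileum, 180 in the caecum and 2 in the colon. Its caecum level was 69.2 times (18.9 to 575.7) that of the ileum. The use of strand in counting is not given in the sources used here, so reads of the pair cannot be told apart.

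Markers of joint and cartilage were read beside Gdf5. Col2a1, the main cartilage collagen, had 1.09, 1.42 and 1.45 RPKM along the same order of segments, and Prg4, the joint lubricant, had 0.520, 0.522 and 0.414 RPKM. Matn1 had 0 counts in all 3 libraries and Acan, the cartilage proteoglycan, 0, 6 and 26. The summed level of the 6 markers was 26.5, 27.9 and 25.3 CPM (counts scaled to library size). Only Comp, a matrix protein with 10, 46 and 16 counts, exceeded both other segments 2-fold or more in the caecum. Of all features that reached the count minimum, 1.84% did so. Comp reached this minimum only through the caecum, where it was high, so its call supports nothing.

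Gdf6, the close relative of Gdf5, showed the opposite order. The columns held 277 and 272 counts in the ileum, 114 and 120 in the caecum, and 248 and 246 in the colon, or 1.55, 0.514 and 1.38 RPKM. The caecum was low, and the ileum and colon overlapped. Relative to the caecum, Gdf6 was 3.05 times (2.44 to 3.82) as high in the ileum and 2.67 times (2.13 to 3.35) as high in the colon. By RPKM, Gdf6 exceeded Gdf5 by 45.1-fold in the ileum and 29.5-fold in the colon, while Gdf5 exceeded Gdf6 by 6.06-fold in the caecum. Gdf6 (ENSMUSG00000051279) lies on chromosome 4 from 9771519 to 9789492, on the plus strand. Gdf7, the other gene of this subfamily, was not detected at this depth in the ileum, with 0 counts, for which the exact Poisson interval reaches 0.0743 CPM. Its columns held 0 and 1 counts in the caecum and 1 and 1 in the colon.

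Of all features with 20 counts or more in a library, 1.84% exceeded both neighbours 2-fold or more in the caecum, and 0.778% were 2-fold or more below both. Gdf5 and Gdf10 were the ligands in the first group, 2 of 9, and Gdf6 that in the second, 1 of 9. Since Gdf5 reached 20 counts only in the caecum, its place in the first group supports nothing. Bmp3 lay between its neighbours.

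**Figure D2:**
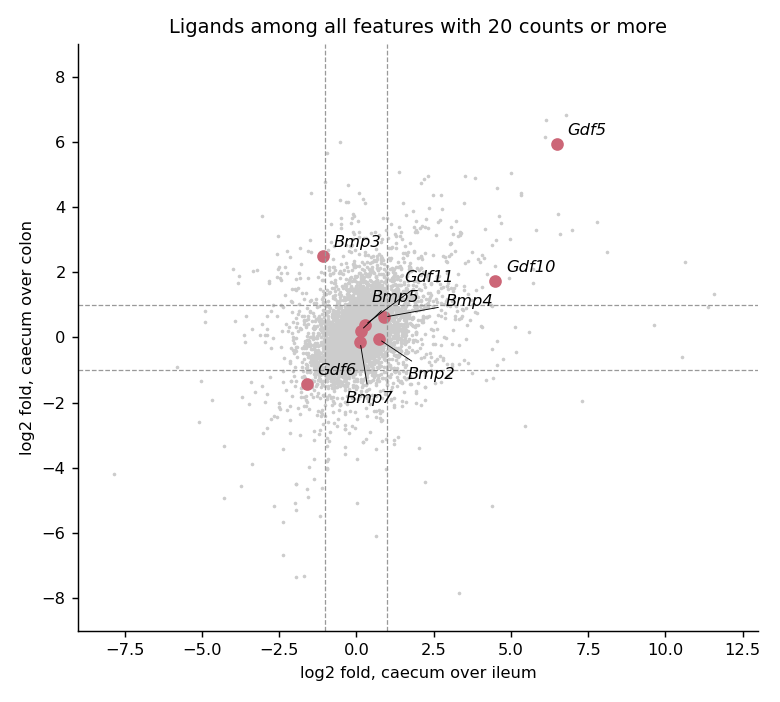
Log2 fold of caecum over ileum (x axis) and caecum over colon (y axis) for all features with 20 counts or more in a library (grey) and the 9 ligands that reached this minimum (red), with dashed lines at 2-fold. Gdf5 and Gdf10 lie at the upper right, Gdf6 at the lower left, Bmp3 at the upper left, and the other 5 ligands inside the square of 2-fold.

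Bmp4, a ligand made largely by gut mesenchyme near the epithelium, was first in RPKM in every segment. The columns held 2404.5 and 2409.5 counts in the ileum, 5806 and 5864 in the caecum, and 3013 and 2989 in the colon, or 21.6, 40.7 and 26.6 RPKM. The caecum was highest and the ileum lowest, with no overlap of the counting intervals. For Bmp4 the ratio of caecum to ileum was 1.86 (1.78 to 1.96), that of caecum to colon 1.54 (1.47 to 1.61) and that of colon to ileum 1.21 (1.15 to 1.28), all below the 2-fold needed for a call. It lies on chromosome 14 from 47003195 to 47010344, on the minus strand, and shares 89 bases with Gm15217 on the other strand, which had 16, 61 and 25 counts.

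Bmp2, which shares its receptors with Bmp4, was far less abundant. It had 0.969 RPKM in the ileum, 1.61 in the caecum and 1.67 in the colon. The ileum was low, and the caecum and colon overlapped. Relative to the ileum, Bmp2 was 1.65 times (1.37 to 1.98) as high in the caecum and 1.70 times (1.41 to 2.06) as high in the colon. The RPKM ratio of Bmp4 to Bmp2 was 22.3 in the ileum, 25.3 in the caecum and 15.9 in the colon. Bmp2 lies on chromosome 2 from 133377895 to 133388621, on the plus strand.

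Bmp5 and Bmp7, which form a subfamily of their own, and Gdf11, a ligand known for its part in axial patterning, were even along the gut. Bmp5 had 8.31, 9.29 and 8.06 RPKM, Bmp7 6.68, 7.34 and 8.10, and Gdf11 6.35, 7.76 and 5.97. The farthest pairs of segments were 1.16-fold (1.09 to 1.23) apart for Bmp5, caecum over colon, 1.20-fold (1.11 to 1.29) for Bmp7, colon over ileum, and 1.30-fold (1.21 to 1.40) for Gdf11, caecum over colon. Bmp5 and Gdf11 were highest in the caecum, with ileum and colon overlapping, and Bmp7 was highest in the colon, with ileum and caecum overlapping. Bmp5 lies on chromosome 9 from 75623171 to 75748117, Bmp7 on chromosome 2 from 172693513 to 172765822 and Gdf11 on chromosome 10 from 128319351 to 128328774. Bmp5 shares 2468 bases with Gm16662 on the other strand, a feature with 603, 836 and 624 counts. In all, 5 of the 9 ligands stayed within 2-fold in every comparison, while 86.3% of all features did, and 5 of 9 had their highest scaled level in the caecum, against 36.7% of all features. Bmp2 and Bmp7 were highest in the colon, as were 28.9% of features, and Bmp3 and Gdf6 in the ileum, as were 34.3%.

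**Figure D3:**
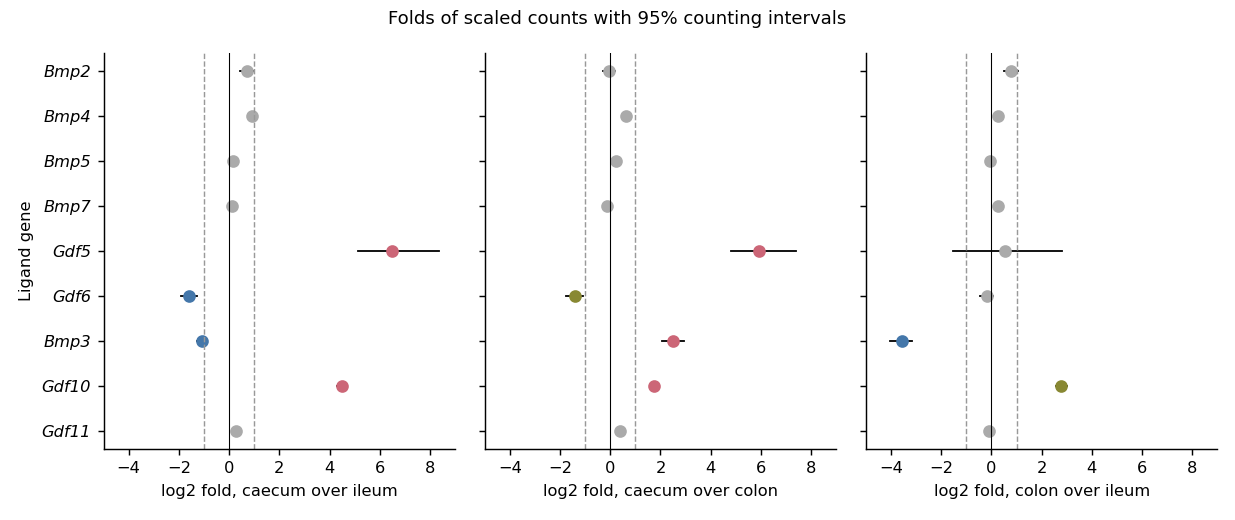
Log2 fold of scaled counts for each ligand in the 3 comparisons, with lines for 95% counting intervals and dashed lines at 2-fold. Points 2-fold or more apart, with 20 counts or more in the higher library, take the colour of the higher segment (blue ileum, red caecum, olive colon) and others are grey.

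The summed level of the 10 ligands was 50.4 RPKM in the ileum, 98.2 in the caecum and 60.0 in the colon. The caecum sum was 1.95 times that of the ileum and 1.64 times that of the colon. Of the 47.8 RPKM between caecum and ileum, Gdf10 made up 24.9 and Bmp4 19.1, and Gdf5 made up 3.08. Without Gdf10 and Bmp4 the sums were 27.6, 31.4 and 25.6 RPKM, and the ratio of caecum to ileum was 1.14. Bmp4 held a near-constant share of the sum, at 42.9%, 41.5% and 44.3% in ileum, caecum and colon. The share of Gdf10 was 2.26%, 26.5% and 13.2%, and that of Bmp3 7.39%, 1.81% and 0.522%.

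**Figure D4:**
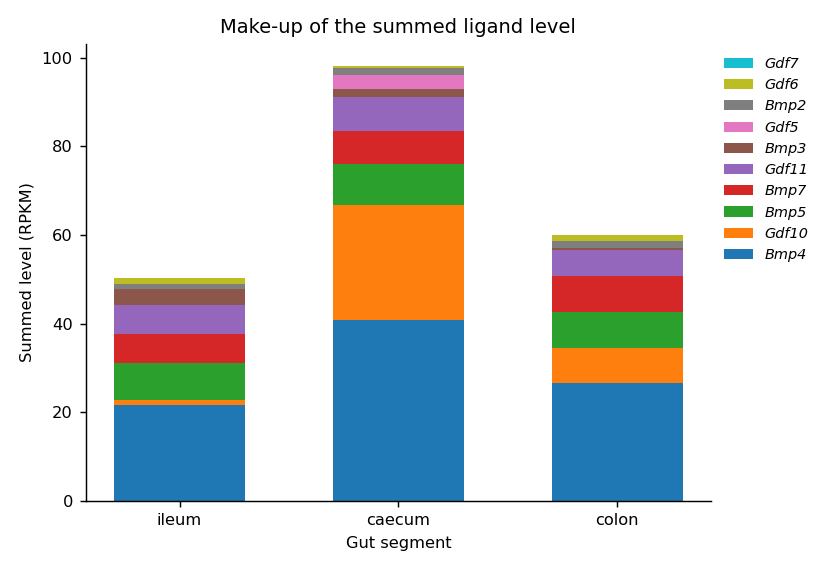
Summed RPKM of the 10 ligands in each segment, with each bar stacked by ligand. The caecum bar reaches 98.2 RPKM, against 50.4 for the ileum and 60.0 for the colon, and the Gdf10 block is 26.1 RPKM tall there.

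Of 11 further BMP and GDF ligand genes, 5 reached 20 counts for the comparison of caecum and ileum. Of these, 2 were 2-fold or more higher in the caecum and 0 in the ileum, against 4.59% and 2.52% of all features. Both, Gdf9 and Gdf15, reached the minimum in this comparison only through the caecum, where they were high, so their count supports nothing. Gdf9, a ligand known from the oocyte, had 12, 44 and 20 counts and reached a ratio of caecum to ileum of 2.82 (1.46 to 5.86). Gdf15, a stress-linked ligand, had 0, 26 and 13 counts, which put the caecum at least 6.66-fold higher than a floor of 3 counts in the ileum, with a lower 95% limit of 5.04 from the 26 counts. Bmp6, of the Bmp5 and Bmp7 subfamily, had 188, 342 and 386 counts with a ratio of colon to ileum of 1.995 (1.67 to 2.39), just short of a call. None of the 5 compared between caecum and colon, or of the 4 compared between colon and ileum, was apart.

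All 7 type I and type II receptor genes were compared, and 0 were 2-fold apart between the caecum and either neighbour. Since 7.11% and 7.84% of all features were, a count of 0 among 7 is near the background. Bmpr1a, the main type I receptor of Bmp2 and Bmp4, had 40.6, 48.1 and 41.7 RPKM and its widest ratio, caecum to ileum, was 1.17 (1.15 to 1.20). Bmpr1b, the type I receptor that Gdf5 prefers, was sparse, at 0.886, 1.23 and 2.15 RPKM. Of the 7 it alone was called apart between colon and ileum, at a ratio of 2.39 (2.07 to 2.77). In that comparison 4.04% of all features were higher in the colon. Bmpr1b was thus highest in the colon while Gdf5 was highest in the caecum. The type II receptors Bmpr2, Acvr2a and Acvr2b had 14.5, 11.2 and 15.1 RPKM in the caecum. Acvr1, a type I receptor used by Bmp7, had 9.02, 9.44 and 8.22 RPKM in the same order, and Acvrl1, the type I receptor of endothelium, 3.76, 3.25 and 3.84.

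Of 6 co-receptor genes, 5 were compared and none was apart, which is near the background, since 86.3% of all features stayed within 2-fold throughout. Rgma, a repulsive guidance molecule that binds BMPs, came nearest, with a ratio of caecum to colon of 1.86 (1.73 to 1.99). Bambi, a decoy receptor, had a ratio of colon to caecum of 1.82 (1.61 to 2.06), and Rgmb a ratio of ileum to colon of 1.62 (1.56 to 1.69). Among the 7 proteases that mature BMPs or cleave Chordin, 6 were compared. Tll1, a tolloid protease, was the 1 gene called, with a ratio of caecum to colon of 2.17 (1.89 to 2.502). In that comparison 5.11% of all features were higher in the caecum. Of the convertases, Pcsk6 had a ratio of caecum to ileum of 1.57 (1.38 to 1.80), and Pcsk5 a ratio of caecum to colon of 1.45 (1.32 to 1.60).

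The secreted antagonists differed in both directions. Of 18 genes, 17 were compared between caecum and ileum, with 3 higher and 3 lower in the caecum, where 4.59% and 2.52% of all features were. Between caecum and colon 17 were compared, with 4 higher and 3 lower in the caecum, against 5.11% and 2.74% of all features. Between colon and ileum 1 of 16 was higher and 2 were lower in the colon, against 4.04% and 4.29%. Among the genes called were Sost, with 6, 24 and 11 counts, and Chrdl2, with 40, 19 and 41. They reached 20 counts in their called comparisons only through the higher segment, so these calls support nothing. Grem1, which encodes the antagonist Gremlin, had 4.56, 0.440 and 6.58 RPKM, lowest in the segment where Bmp4, Gdf5 and Gdf10 were highest, and its ratio was 10.5 (8.62 to 12.8) for ileum to caecum and 14.8 (12.3 to 18.1) for colon to caecum. Fst, which encodes the activin and BMP antagonist Follistatin, had 18.5, 51.2 and 11.7 RPKM with ratios of caecum to ileum of 2.74 (2.62 to 2.87) and of caecum to colon of 4.38 (4.15 to 4.62). Htra1, a serine protease that binds TGF-beta family ligands, had 1.25, 10.5 and 1.79 RPKM and a ratio of caecum to ileum of 8.33 (7.15 to 9.76). Nog, which encodes Noggin, had 2.05, 1.68 and 0.681 RPKM with a ratio of caecum to colon of 2.49 (1.88 to 3.34).

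All 8 genes of the Smad list, which holds BMP Smads and their Smurf ligases, and 9 of 10 response genes were compared. None of them was 2-fold apart in any comparison, which is near the background, since 86.3% of all features stayed within 2-fold throughout. Smad6, Smad7 and Bambi stand on more than 1 list. Within the Smad list, Smad9, Smad7 and Smad1 differed most, with largest absolute log2 differences of 0.69, 0.32 and 0.29. Id1, a direct BMP target, had 27.0, 37.5 and 20.9 RPKM with ratios of caecum to colon of 1.80 (1.69 to 1.93) and of caecum to ileum of 1.38 (1.29 to 1.47). The ratio of caecum to colon was 1.78 (1.70 to 1.86) for Id3 and 1.12 (1.08 to 1.16) for Id2, and Id4 had a ratio of ileum to colon of 1.97 (1.70 to 2.30). Msx1, a homeobox target of BMP, was sparse, with 38, 62 and 28 counts, and Msx2 had 8, 2 and 2.

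**Figure D5:**
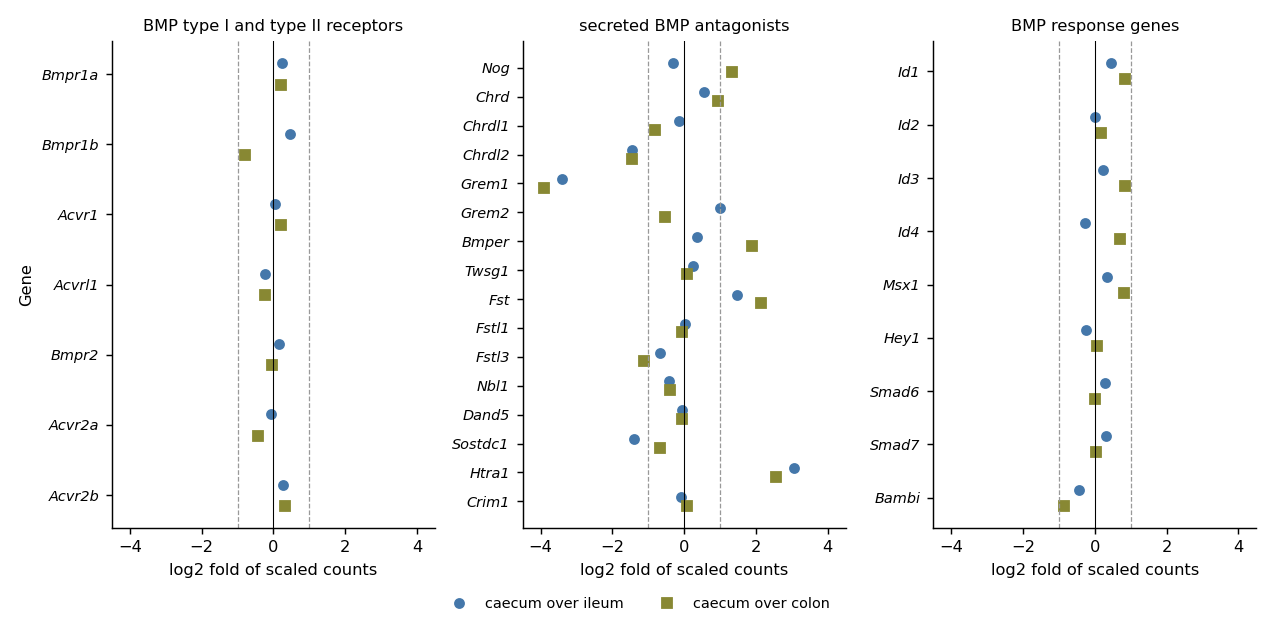
Log2 fold of scaled counts of caecum over ileum (blue circles) and caecum over colon (olive squares) for receptors, secreted antagonists and response genes with 20 counts or more in every comparison, with dashed lines at 2-fold. Receptors and response genes lie inside the lines, while Grem1 lies far to the left and Htra1 and Fst to the right.

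Marker lists of gut cell types were read beside these results, and their part in them was not tested. Epithelial and mesenchymal markers were present in all segments, and their summed levels were 474.6, 467.7 and 561.8 and 4638, 4684 and 4671 CPM, in the order ileum, caecum, colon. Of 10 epithelial markers only Elf3 and Krt19 were called. Elf3 had a ratio of ileum to caecum of 2.525 (2.23 to 2.86), where 2.52% of all features were higher in the ileum. Krt19 had a ratio of colon to ileum of 2.16 (2.05 to 2.28), where 4.04% were higher in the colon. The sum of the smooth muscle markers was lower in the caecum and colon, at 2835, 1228 and 1424 CPM. Of these markers 6 of 9 were called in favour of the ileum over the caecum, against 2.52% of all features. Des alone ran the other way there, with a ratio of caecum to ileum of 1.38 (1.30 to 1.465). Enteric nervous system markers summed to 776.5, 782.6 and 467.8 CPM, lowest in the colon. Of these 10 markers, 7 were called in favour of the ileum over the colon, against 4.29% of all features. In favour of the caecum over the colon 5 of the 10 were called, against 5.11% of all features. Ret, the receptor of enteric progenitors, was in neither group, at 155.2, 210.0 and 171.4 CPM. Of the 11 mesenchymal markers, 4 were called in some comparison, while 86.3% of all features stayed within 2-fold throughout. These 4 ran in different orders. Lum, a matrix proteoglycan, had 8862, 6122 and 760 counts, and Dcn, another, had 2320, 3704 and 1290. Twist1, a mesenchymal transcription factor, had 182, 734 and 804 counts, and Foxl1, a factor of the mesenchyme next to the epithelium, 159, 103 and 181. Of 6 endothelial, 6 red blood cell and 5 macrophage markers none was 2-fold apart in any comparison, which is near that background. Of 5 mesothelial markers only Msln was 2-fold apart, with 24, 16 and 204 counts. Urothelial and cloacal markers summed to 62.8, 41.0 and 38.9 CPM, most of it Shh, a ligand that gut epithelium also makes, at 60.6, 37.0 and 29.6 CPM. Upk1a, a urothelial membrane protein, ran the other way, at 2.07, 3.72 and 8.85 CPM, and was called in the colon over both other segments. Among markers of pancreas and stomach, Ptf1a had 0 counts in all libraries. The list summed to 12.1, 15.4 and 10.7 CPM, most of it Sox2, at 11.5, 15.05 and 10.1 CPM.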

How the data were processed

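Polyadenylated RNA of 3 gut segments was read by paired-end sequencing, with 1 sample per segment. Bowtie 0.12.7, DESeq and mm9 are listed, with no role, per the submitters' processing notes, and the counting program, annotation release and use of strand are not given in the sources used here. Per the file headers, the authors deposited counts per gene, taken to be expected counts since some hold fractions of 0.5, and RPKM. The 2 columns of each kind per segment differed by 0.422 (ileum), 0.449 (caecum) and 0.438 (colon) of what counting noise alone gives, as a mean squared difference, against 67, 52 and 45.3 between segments. They were averaged, and the mean count rounded, to 1 library of 50079617, 64439701 and 50772855 counts.

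Libraries were scaled by TMM (edgeR 4.0.16, R 4.3.3). Folds carry 95% intervals (exact Clopper-Pearson, on the binomial split of both counts), and levels exact Poisson intervals. A count of 0 was set to a floor of 3 counts for a fold. Starts in mm9 are counted from 1. The fold and interval steps were checked on simulated counts with known folds and counting error alone. That check holds no variation between embryos or libraries, so it does not bear on the missing replication. All 10 ligands were named, with every type I and II receptor, Nog, Grem1, Id1, Id2, Id3, Msx1 and Msx2. Named too were the 3 genes of each further pathway list with the largest fold, and Sost and Chrdl2 for their low counts. Picked from the marker lists after their values were seen were Comp, Acan, Col2a1, Prg4, Lum, Dcn, Twist1 and Foxl1. So were Ret, Msln, Upk1a, Shh, Ptf1a, Sox9, Sox2, Des, Matn1, Elf3 and Krt19. What sets the 2 columns of a segment apart is not given in the sources used here. The ligands and lists were chosen with earlier results of these data known. Of 81 marker entries, 80 were in the table. Alternatives were other scalings, count minimums, folds and call rules, RPKM, and each column alone.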

Additional observations from a re-analysis of the deposited data

How the results depend on the processing

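The number of ligands called apart was unchanged under RLE, total-count and upper-quartile scaling, RPKM ratios and either count minimum (none or 100 counts). At 1.5-fold it rose to 6 for caecum against ileum, with Bmp2 and Bmp4 added. It rose to 5 for caecum against colon, with Bmp4 added, and to 3 for colon against ileum, with Bmp2 added. At 4-fold it fell from 4 to 2 for caecum against ileum (Gdf5, Gdf10) and to 2 for caecum against colon (Bmp3, Gdf5). With intervals wholly beyond 2-fold, Bmp3 was no longer called between ileum and caecum, leaving 3. Without either count column the numbers were 4, 4 and 2, and 5 ligands were highest in the caecum. The columns of a segment differed by less than counting noise, so leaving 1 out is no replicate check. The scaling factors of the averaged columns lay between 0.989 and 1.010 under every method, so the other scalings could move the folds only slightly. No called fold changed direction, and no ligand's fold left its counting interval, under the other scalings, RPKM or either column alone; the largest shift in log2 was 0.30, for Gdf5 in the comparison with the colon. Taken from counts, not per length, Bmp4 held 30.2% (29.2 to 31.3), 29.5% (28.9 to 30.2) and 31.1% (30.2 to 32.1) of the ligand sum in the ileum, caecum and colon, and Gdf10 2.68% (2.33 to 3.05), 31.8% (31.1 to 32.4) and 15.6% (14.9 to 16.3), with exact binomial 95% intervals, so that Gdf10 led Bmp4 in the caecum by counts and Bmp4 led by RPKM. No paired analysis was possible because each segment has 1 sample and the result comes from no test. Depth limits Gdf5 outside the caecum (4 and 6 counts) and Gdf7 everywhere.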
